A study of Mus musculus with 6 samples.

Results

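The calcium pump genes were examined in RNA sequencing of MTO54, an organoid line grown from a mouse colorectal tumor (MTO). The labels give its genotype as AKP. The genes were 6 of the 9 genes for P-type calcium ATPases, out of 24190 genes in the count table. They were Atp2a2 and Atp2a3, which encode the SERCA pumps SERCA2 and SERCA3, Atp2b1 and Atp2b4, which encode the plasma membrane pumps PMCA1 and PMCA4, and Atp2c1 and Atp2c2, which encode the secretory pathway pumps SPCA1 and SPCA2. They were chosen by name with their change after Folfiri already known, so their values in that contrast are a description. No p-value is given for them, and counts of how many passed a threshold only describe where they fall among all genes. The 3 control MTOs received complete stem cell medium. The 3 Folfiri MTOs received SN38 at 100 nM together with 5FU, for which the labels state 50 μg/μl. Per the labels, both media were given 2 days after seeding of single cells and left for 2 days, but the study also describes the exposure as longer, so its length is uncertain. The study calls the replicates biological. All of them come from 1 untransplanted organoid line, so the p-values below measure the spread between samples of that line.

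Calcium ATPases use ATP to move calcium out of the cytosol, where its resting level is kept far below that outside the cell or in the endoplasmic reticulum (ER). SERCA pumps fill the ER, PMCA pumps export calcium across the plasma membrane under the control of calmodulin, and SPCA pumps bring calcium and manganese into the Golgi apparatus. SERCA2 is present in nearly all cells. SERCA3 has a lower affinity for calcium and is best known from blood cells, endothelium and the epithelium of the gut, where it rises as cells differentiate and is low in colon carcinoma. SPCA2 is largely a pump of secretory epithelia.

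Because SERCA2 and SERCA3 are close paralogs, the first question was whether their reads could be told apart. The longest identical run in the transcripts of Atp2a2 and Atp2a3 was 44 bases, in the coding part of exon 15 in both genes. It lies on chr5:122460000-122460043, minus strand, for Atp2a2 and on chr11:72981881-72981924, plus strand, for Atp2a3 (GRCm38, GENCODE transcripts). The sequences below show it in capitals with 30 bases of the same transcript on each side, which reach into the next exon, and 46 of these 60 flanking positions were identical in place.
Atp2a2: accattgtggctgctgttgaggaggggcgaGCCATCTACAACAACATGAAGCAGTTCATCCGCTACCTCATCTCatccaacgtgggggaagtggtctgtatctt
Atp2a3: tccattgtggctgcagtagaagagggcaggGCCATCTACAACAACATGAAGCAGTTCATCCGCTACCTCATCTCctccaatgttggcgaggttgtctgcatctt
No run of 50 bases was shared between any 2 of the 6 genes. A read that lies within the 44 identical bases could have come from either SERCA gene, whereas one that reaches past them on either side meets a difference between the genes.

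The start regions are shown so that pump genes with opposite changes can be set side by side, 1 region for each of 3 genes. The 250 bases upstream of the RefSeq start (GRCm38.p6) were read for 4 of the 6 genes, with 6 start sites in all. Capitals mark the GC box, GGGCGG on either strand, including overlapping copies. The Atp2a3 region is chr11:72960919-72961168 on the plus strand, the first of the Atp2b1 regions is chr10:98914392-98914641 on the plus strand, and one of the Atp2c1 regions is chr9:105495134-105495383 on the minus strand.
Atp2a3: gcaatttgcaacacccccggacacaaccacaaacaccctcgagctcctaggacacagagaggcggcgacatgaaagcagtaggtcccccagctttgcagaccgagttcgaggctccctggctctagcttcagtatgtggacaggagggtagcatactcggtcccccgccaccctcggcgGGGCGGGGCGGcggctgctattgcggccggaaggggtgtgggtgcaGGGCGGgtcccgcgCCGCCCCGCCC
Atp2b1: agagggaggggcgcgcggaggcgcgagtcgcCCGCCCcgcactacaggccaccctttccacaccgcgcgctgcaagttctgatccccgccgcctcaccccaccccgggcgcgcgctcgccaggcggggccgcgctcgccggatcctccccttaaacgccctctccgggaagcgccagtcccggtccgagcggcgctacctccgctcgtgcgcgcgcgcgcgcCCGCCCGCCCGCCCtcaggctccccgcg
Atp2c1: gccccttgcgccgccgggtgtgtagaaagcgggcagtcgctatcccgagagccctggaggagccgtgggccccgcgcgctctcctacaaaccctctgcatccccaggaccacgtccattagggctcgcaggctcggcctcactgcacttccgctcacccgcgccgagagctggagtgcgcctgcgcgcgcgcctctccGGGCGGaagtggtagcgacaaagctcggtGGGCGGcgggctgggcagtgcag
The Atp2a3 region held 5 GC boxes, the farthest beginning 71 bases and the nearest 6 bases before the start. Those of Atp2b1 and Atp2c1 held 4 and 2. A GC box was present in 32.7% of 32851 such regions, CCAAT in 33.8%, TATAAA in 12.4% and the ER stress element in 0.113%, each searched on both strands. None of the last 3 motifs was in any of the 6 regions. GC content was 66.8% for Atp2a3, 78.4% for Atp2b1 and 70.8% for Atp2c1, against a median of 52.4%. The other Atp2b1 region held 3 GC boxes. The other Atp2c1 region, chr9:105521258-105521507, held 0 and had a GC content of 51.6%, and the Atp2b4 region held 0 at 45.6%, so the 2 starts of Atp2c1 differed in these letters.

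Counts on genes ranged from 22103591 to 30098210 per sample. Levels are given as CPM, counts scaled to a common library size and corrected for composition by TMM, and every ± is the SD over the 3 samples of a group (n = 3 each). edgeR's quasi-likelihood test covered the 14692 genes that passed its expression filter. Of these, 79.1% differed between Folfiri and control at an adjusted p under 0.05, 40.3% higher and 38.8% lower after Folfiri. The scaling mattered for small changes: total counts without TMM moved the median log2 fold change over these genes from 0.02 to 0.30, and the share of higher genes among the calls from 51.0% to 63.3%. Control replicate 1 stood apart from the other controls, with chi-square values per degree of freedom of 24.9 and 23.3 against 3.95 between the other two, and Folfiri replicate 3 stood apart with 13.3 and 12.8 against 3.75. Leaving out control replicate 1 gave log2 fold changes of 0.0013 for Atp2a2, -4.47 for Atp2a3, 0.44 for Atp2b1, -0.41 for Atp2c1 and -0.89 for Atp2c2, and leaving out Folfiri replicate 3 gave 0.04, -4.43, 0.50, -0.40 and -0.91, all close to the values below.

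Of the SERCA genes, Atp2a3 was far lower after Folfiri, and the groups overlapped for Atp2a2. Atp2a3 (ENSMUSG00000020788, chr11:72961169-72993044 of GRCm38, plus strand) stood at 133, 138 and 145 CPM in the controls and at 6.34, 6.45 and 6.31 CPM after Folfiri. The lowest control was far above the highest treated sample, and the treated samples were almost equal. The group means were 139 ± 6.00 and 6.37 ± 0.0765 CPM, a 21.8-fold lower level and a log2 fold change of -4.44 (SE 0.08). In these bulk samples, fewer cells that express a gene and less RNA per cell cannot be told apart. Of the 9475 tested genes that averaged 10 CPM or more, 14 had a log2 fold change as low as that of Atp2a3 or lower, itself included.
Atp2a2 (ENSMUSG00000029467, chr5:122453513-122502225, minus strand) stood at 590, 568 and 588 CPM in the controls and at 583, 609 and 542 CPM after Folfiri. The groups overlapped. The means were 582 ± 12.3 and 578 ± 33.8 CPM, and the log2 fold change was -0.01 (SE 0.08). Set against the median over all tested genes it was -0.03 with TMM and also with total counts only, although the value itself became 0.27 under the latter.

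**Figure D1:**
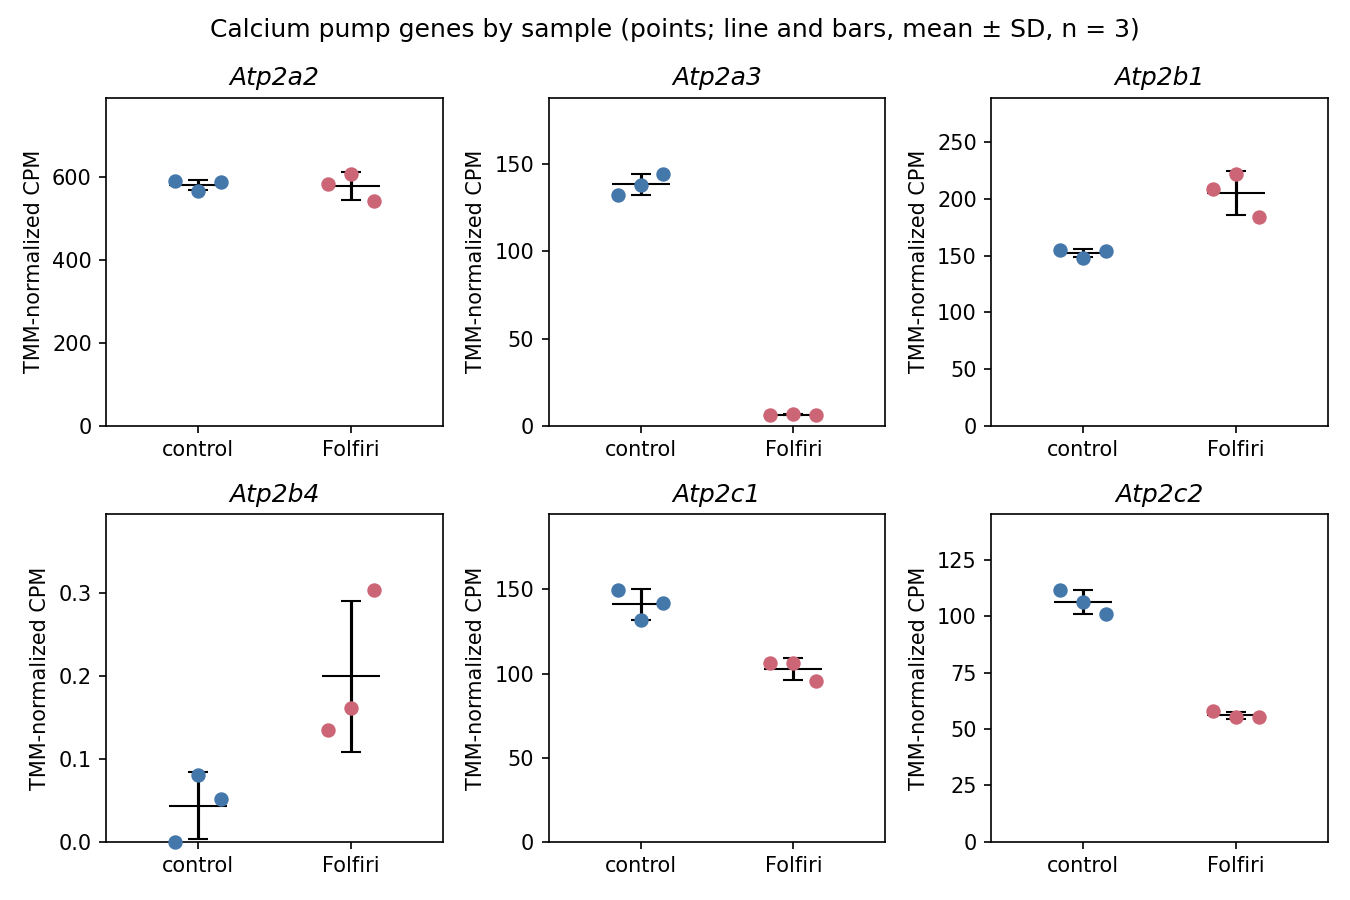
TMM-normalized CPM (vertical axes, linear from 0) of the 6 calcium pump genes in each of the 3 control and 3 Folfiri samples; points are samples, and the line and bars are the mean ± SD. Atp2a3 stood at a mean of 139 CPM in controls and 6.37 CPM after Folfiri while the Atp2a2 groups overlapped, and the Atp2b4 axis ends below 1 CPM.

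Levels of different genes were compared per kilobase of merged exons. The SERCA level, the sum over Atp2a1, Atp2a2 and Atp2a3, was 122, 120 and 124 CPM per kb in the controls and 97.1, 101 and 90.4 CPM per kb after Folfiri. Atp2a3 made up 20.6%, 21.9% and 22.1% of it in the controls and 1.24%, 1.20% and 1.32% after Folfiri. With TMM, every treated sample was below every control on both measures. The mean share was 21.5 ± 0.837% in controls and 1.25 ± 0.0606% after Folfiri. The log2 ratio of Atp2a3 to Atp2a2 went from -1.87 ± 0.07 to -6.30 ± 0.07, a difference of -4.43, which no scaling of whole libraries can change. With TMM, the summed SERCA level after Folfiri was 79.0% of that in controls. This sum depends on the scaling, unlike the share, and it was not read with other scalings. Atp2a2, its largest part, had a log2 fold change of 0.27 with total counts only, in place of -0.01. Atp2a1, which encodes the SERCA1 pump of fast skeletal muscle, had at most 13 counts in any sample.

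Of the plasma membrane pump genes, Atp2b1 was higher after Folfiri and Atp2b4 was barely detected. Atp2b1 (ENSMUSG00000019943, chr10:98914406-99026143, plus strand) encodes the housekeeping PMCA pump. It stood at 155, 148 and 154 CPM in the controls and at 209, 222 and 184 CPM after Folfiri. All treated samples were above all controls, with means of 152 ± 3.74 and 205 ± 19.5 CPM and a log2 fold change of 0.43 (SE 0.08), or 0.71 with total counts only. Atp2b4 (ENSMUSG00000026463, chr1:133699457-133801041, minus strand) had 0, 2 and 1 counts in the controls and 4, 5 and 10 counts after Folfiri. It did not pass the expression filter, and no fold is given. It counted among the genes past the threshold when no filter was used. Of the PMCA genes outside the 6, Atp2b2 had at most 8 counts and Atp2b3 at most 2 counts in any sample, so that Atp2b1 was the PMCA gene that carried nearly all reads.

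The SPCA genes were both lower after Folfiri. Atp2c2 (ENSMUSG00000034112, chr8:119700009-119757717, plus strand) stood at 112, 106 and 101 CPM in the controls and at 57.8, 55.1 and 55.3 CPM after Folfiri. The groups were separate, at means of 106 ± 5.26 and 56.1 ± 1.53 CPM, and the log2 fold change was -0.92 (SE 0.07). Atp2c1 (ENSMUSG00000032570, chr9:105403539-105527319, minus strand), the SPCA gene of nearly all cells, stood at 150, 132 and 142 CPM in the controls and at 107, 106 and 95.4 CPM after Folfiri. Its groups were separate as well, at means of 141 ± 9.08 and 103 ± 6.40 CPM, with a log2 fold change of -0.46 (SE 0.08). With total counts only it was -0.18, which no longer counted among the genes past the threshold. Atp2c1 shares 1837 exonic bases with Aste1 on the opposite strand, and since the library kit does not mark strand, reads from the shared bases cannot be told apart. Aste1 stood at 4.42 ± 1.01 CPM in controls and 8.54 ± 0.727 CPM after Folfiri, so that its level went the other way.

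Of the 6 genes, 5 passed the expression filter. As a description, 1 of them was past the threshold used for all genes as higher, beside 40.3% of all tested genes, and 3 as lower, beside 38.8%. The groups did not overlap for these 4 genes, beside 81.4% of all tested genes. Across the 6 genes, the summed level per length with TMM was 180 ± 3.35 CPM per kb in controls and 138 ± 7.53 CPM per kb after Folfiri. It depends on the scaling as well and was not read with other scalings. Atp2a2 went from 53.3% to 69.0% of this sum, whereas Atp2a3 went from 14.6% to 0.877% and Atp2c2 from 18.4% to 12.7%. Atp2b1 went from 5.57% to 9.77%, and Atp2c1 was at 8.10% and 7.69%. These shares are by merged exon length and depend on the length used. With the longest annotated transcript, Atp2b1 stood at 21.3 CPM per kb in controls and 28.8 after Folfiri, in place of 10.0 and 13.5.
In controls the order per kilobase was Atp2a2 at 95.7, Atp2c2 at 33.0, Atp2a3 at 26.2, Atp2c1 at 14.6, Atp2b1 at 10.0 and Atp2b4 at 0.00358 CPM per kb. After Folfiri it was Atp2a2 at 95.0, Atp2c2 at 17.4, Atp2b1 at 13.5, Atp2c1 at 10.6, Atp2a3 at 1.21 and Atp2b4 at 0.0163 CPM per kb. No neighbours overlapped in their sample ranges in either order. The order depends on the length used: with the longest annotated transcript, Atp2a3 and Atp2c2 overlapped in controls, and after Folfiri Atp2b1 stood second at 28.8 CPM per kb, followed by Atp2c1 at 18.2 and Atp2c2 at 17.4, whose ranges overlapped. After Folfiri, Atp2a2 was first and Atp2a3 last but one by either length.

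**Figure D2:**
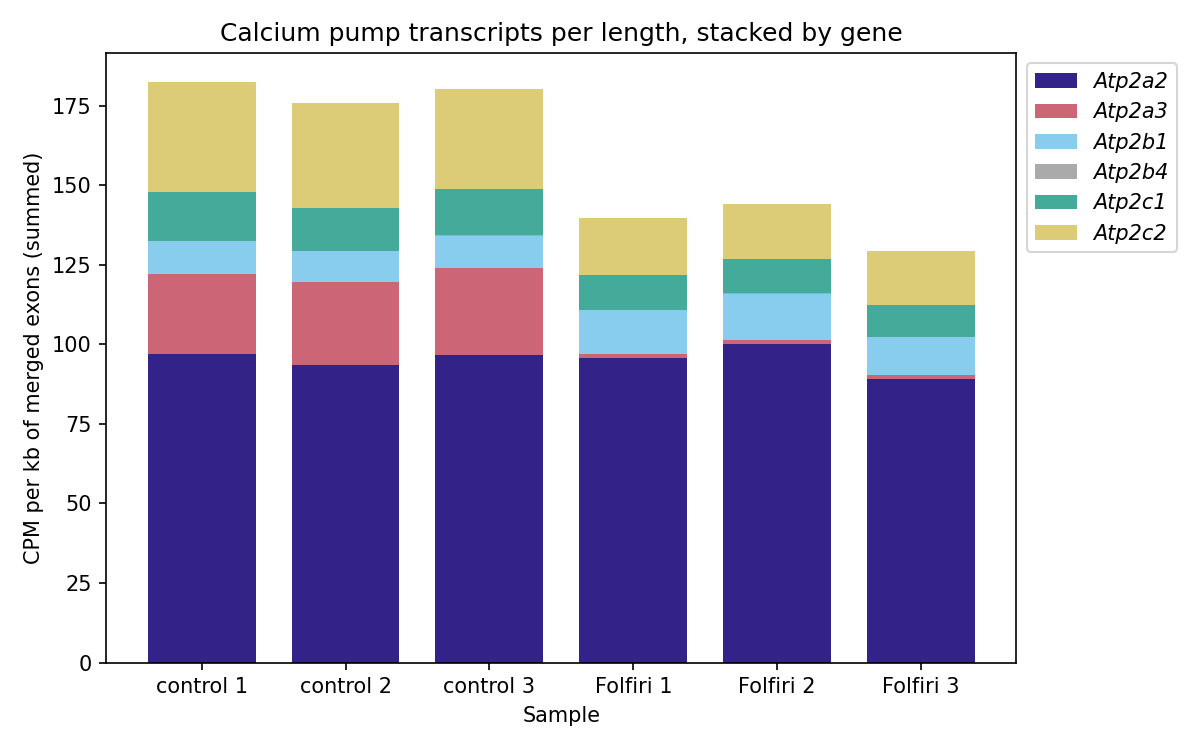
Summed CPM per kb of merged exons (vertical axis, from 0) in each of the 6 samples (horizontal axis), stacked by calcium pump gene. The Atp2a2 segment is about equal in all samples at means of 95.7 and 95.0 CPM per kb, and the Atp2a3 segment shrinks from a mean of 26.2 to 1.21 CPM per kb.

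The other P-type ATPases, pumps for sodium, copper, polyamines and lipids, gave a measure of how such genes changed outside the calcium family. Of 28 listed genes 21 were tested, 6 were higher and 12 lower after Folfiri, beside 40.3% and 38.8% of all tested genes. Their median log2 fold change was -0.38, against 0.02 for all tested genes, and no test compared the list with other genes. Atp13a1, an ATPase of the ER membrane, rose from 92.4 ± 3.31 to 136 ± 5.71 CPM, a log2 fold change of 0.56 (edgeR adjusted p = 2.18e-05), and Atp10a, a lipid flippase, rose by 0.52 on the log2 scale (edgeR adjusted p = 0.0166). The call for Atp10a was lost without control replicate 2, control replicate 3 or Folfiri replicate 3, with adjusted p values up to 0.0591. Atp7b, a copper exporter, fell from 15.4 ± 2.92 to 1.58 ± 0.245 CPM, a log2 fold change of -3.29, and Atp8a1, a lipid flippase gene, had one of -1.90. Atp8a1 shares exonic bases with genes on the opposite strand. The log2 fold change of Atp2a3 was lower than that of each of these 21 genes.

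**Figure D3:**
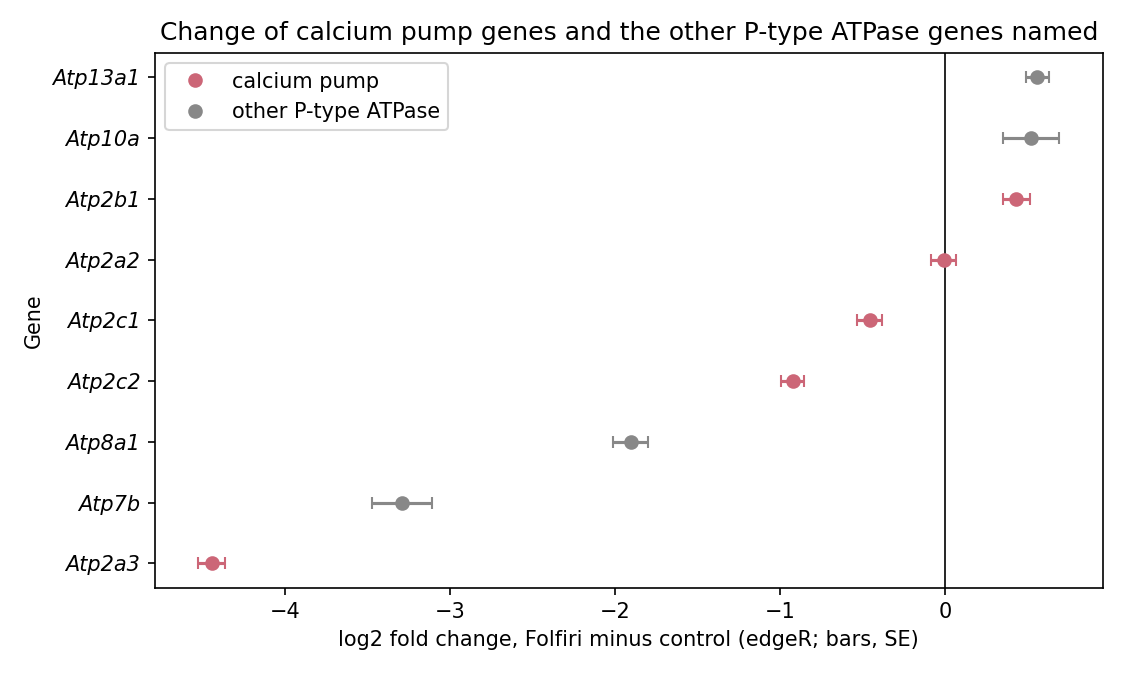
Log2 fold change, Folfiri minus control (horizontal axis; bars, SE from edgeR), of the 5 tested calcium pump genes and the 4 other P-type ATPase genes named in the text (vertical axis, sorted). Atp2a3 lies at the bottom at -4.44, Atp7b is next at -3.29 and Atp13a1 is at the top at 0.56.

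The pattern of Atp2a3 over the 6 samples was set against those of the 9474 other tested genes that averaged 10 CPM or more, by the root mean square difference of log2 CPM centred on each gene's mean. Among the 5 closest were Plod2, which encodes a collagen lysyl hydroxylase, at 0.0861, Acss2, which encodes an acetyl-CoA synthetase, at 0.106, Ndrg1 at 0.128 and Lpin1, which encodes a phosphatidate phosphatase, at 0.133. With 2 groups of 3 samples this measure mainly picks genes with a change of the same size, and these 4 had log2 fold changes between -4.52 and -4.29.

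The 13 lists of related genes held 139 genes, of which 109 were tested, 30 were higher and 56 lower after Folfiri (78.9% past the threshold, close to the 79.1% of all genes). Their median log2 fold change was -0.32, against 0.02 for all tested genes. The counts of each list and of the cell type markers stand beside the same 40.3% higher and 38.8% lower, and none of these lists was tested against other genes. Of the SERCA regulators, 5 of 9 were tested and 3 were lower. Vmp1, an ER membrane protein that activates SERCA, fell from 617 ± 42.8 to 211 ± 5.93 CPM, a log2 fold change of -1.55 (edgeR adjusted p = 4.96e-08), and its exons include the microRNA gene Mir21a. Tmx1, a thioredoxin-related ER protein that restrains SERCA2, fell by 0.35 on the log2 scale (edgeR adjusted p = 0.000701), but with total counts only the log2 fold change was -0.08 (adjusted p = 0.403). Tmem64 had a log2 fold change of -0.31 (edgeR adjusted p = 0.0387), a call that was lost in 8 of 13 alternatives, among them those without control replicate 1 and without each Folfiri replicate in turn, with adjusted p up to 0.814. Sln and Mrln, small SERCA inhibitors of muscle, had at most 2 counts in any sample.
Of the 5 partners of the PMCA pumps, 1 was higher and 3 lower. Bsg, which encodes basigin, and Nptn, which encodes neuroplastin, are subunits that PMCA pumps need to reach the cell surface. Bsg stood at 2334, 3290 and 3237 CPM in the controls and at 591, 548 and 615 CPM after Folfiri, which is a log2 fold change of -2.34 (SE 0.14, edgeR adjusted p = 1.19e-07), and control replicate 1 was the lowest of the controls. Nptn fell by 0.47 on the log2 scale (edgeR adjusted p = 0.000108). Nptn shares exonic bases with a gene on the opposite strand. Of the genes for calmodulin, Calm3 fell from 318 ± 34.0 to 220 ± 4.20 CPM, and Calm2 was at 382 ± 18.8 and 396 ± 14.3 CPM (edgeR adjusted p of 0.000192 and 0.54).

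Of the genes for calcium release from the ER, 11 of 12 were tested, 4 were higher and 5 lower. All 3 IP3 receptor genes, whose products open the ER store in response to IP3, fell. Itpr3 stood at 351, 384 and 399 CPM in the controls and at 126, 118 and 109 CPM after Folfiri, which is a log2 fold change of -1.68 (SE 0.08, edgeR adjusted p = 3.87e-08). Itpr2 fell from 17.0 ± 1.48 to 2.42 ± 0.346 CPM and Itpr1 from 25.1 ± 4.62 to 15.7 ± 1.85 CPM, log2 fold changes of -2.81 and -0.68. Each treated sample was below each control for all 3 genes. Itpr1 and Itpr3 overlap genes on the opposite strand. The presenilin gene Psen2 and the ER calcium load channel gene Tmco1 rose by 1.25 and 0.49 on the log2 scale, and Grina fell by 0.72.
For store-operated entry, the route by which an empty ER store opens the plasma membrane, 4 of 9 genes were higher and 4 lower. The channel genes Orai2 and Orai3 rose from 7.38 ± 0.968 to 12.8 ± 0.755 CPM and from 6.01 ± 0.310 to 14.4 ± 0.382 CPM, while Orai1 was at 32.9 ± 2.45 and 32.8 ± 2.86 CPM (edgeR adjusted p of 0.000147, 1.28e-06 and 0.945). The log2 fold change of Orai1 changed its sign between scalings. Stim1, the ER calcium sensor, rose by 0.33 (edgeR adjusted p = 0.0039). Stim2 had a log2 fold change of 0.18 (edgeR adjusted p = 0.0404), a call that was lost in 7 of 13 alternatives, among them those without control replicates 2 and 3 and Folfiri replicates 1 and 2, with adjusted p up to 0.157. The regulators Cracr2a, Tmem110 and Saraf, the last of which switches store-operated entry off, fell by 1.87, 0.77 and 0.63 on the log2 scale.

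Of 11 listed genes for calcium-binding proteins of the ER lumen 8 were tested, 5 were lower and 2 higher, beside 38.8% and 40.3% of all tested genes. Their median log2 fold change was -0.70, against 0.02 for all tested genes, and no test compared the list with other genes. Hspa5, which encodes the chaperone BiP, stood at 961, 1111 and 1141 CPM in the controls and at 446, 464 and 466 CPM after Folfiri, which is a log2 fold change of -1.22 (SE 0.09, edgeR adjusted p = 4.97e-07). Hsp90b1 fell by 1.66, Pdia4 by 1.44 and Calr, which encodes the calcium store protein calreticulin, by 0.87 on the log2 scale. Rcn2 rose from 52.7 ± 0.497 to 89.4 ± 1.65 CPM. Casq2, named after its values were seen as the other gene that was higher, went from at most 3 counts to at least 41 counts per sample. The groups overlapped for Atp2a2, their pump, in the same samples.
Of 9 genes that mark ER stress signalling, 6 were lower and 2 higher, beside 38.8% and 40.3% of all tested genes, with a median log2 fold change of -0.74. Xbp1 fell by 1.74, Sdf2l1 by 1.76 and Herpud1 by 1.21, and Ern1 and Atf4 rose by 0.54 and 0.26 on the log2 scale.

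In the Golgi list, which holds calcium and manganese proteins, 4 of the 6 tested genes were lower and 0 higher by edgeR. Slc39a8, a manganese and zinc importer, fell from 82.4 ± 9.60 to 28.2 ± 1.11 CPM. The Golgi calcium-binding protein genes Nucb1 and Nucb2 fell by 0.65 and 0.78 on the log2 scale. Tmem165, a Golgi manganese and calcium transporter, was at 101 ± 3.77 and 92.5 ± 2.89 CPM (edgeR adjusted p = 0.119), and its log2 fold change of -0.12 changed its sign with total counts only. At an unadjusted p under 0.05, 1 gene of the list was higher, and with DESeq2's Wald test 0 were. It was Sdf4, named after its values were seen, which encodes the Golgi calcium-binding protein Cab45 and had a log2 fold change of 0.17 (unadjusted p = 0.0454, edgeR adjusted p = 0.0569). Its adjusted p passed the threshold with total counts only, with upper quartile scaling and with the filter of at least 1 CPM in 3 samples, and ranged from 8.25e-05 to 0.168 over the alternatives.
Among 10 genes of mitochondrial calcium uptake, 5 were lower and 1 higher. Mcu, which encodes the pore of the mitochondrial uniporter, fell from 57.6 ± 4.14 to 26.4 ± 2.09 CPM, a log2 fold change of -1.13 (edgeR adjusted p = 8.73e-07). Its gatekeeper gene Micu2 fell by 0.97 on the log2 scale. The gene that was higher, Mcub, had at most 2 counts in any control and is named after its values were seen.
Of 9 genes of intestinal calcium absorption 5 were tested, 2 were higher and 1 lower. Trpv6, the apical calcium channel of enterocytes, had 1, 2 and 1 counts in the controls and 18, 19 and 19 counts after Folfiri (edgeR adjusted p = 3.24e-05). Vdr, the vitamin D receptor, was at 0.768 ± 0.0517 and 0.595 ± 0.159 CPM (edgeR adjusted p = 0.256). Rxra rose from 14.6 ± 2.08 to 26.4 ± 1.34 CPM. Of 8 exchanger genes 1 was tested, Slc24a5, at 1.19 ± 0.183 and 2.77 ± 0.105 CPM (edgeR adjusted p = 0.000104), and it overlaps Myef2 on the opposite strand.

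**Figure D4:**
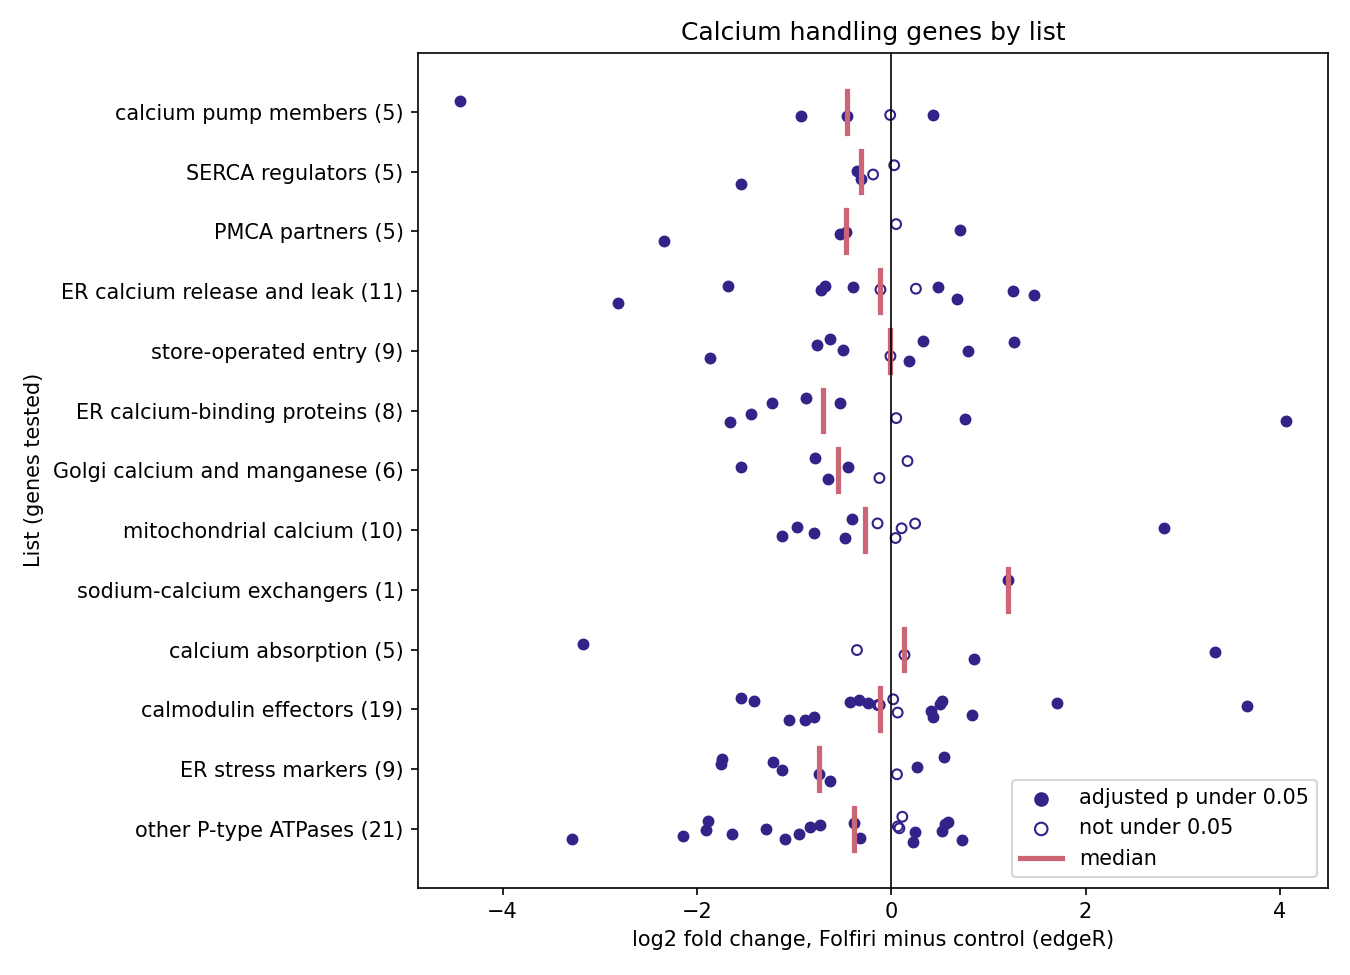
Log2 fold change, Folfiri minus control (horizontal axis), of the tested genes of the calcium pump group and of 12 related lists (vertical axis, with the number tested); filled points are past an adjusted p of 0.05 in edgeR's test, open points are not, and bars are medians. The ER calcium-binding proteins have a median of -0.70, the ER stress markers one of -0.74 and the store-operated entry genes one of -0.01.

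Since SERCA3 is abundant in blood and endothelial cells and SPCA2 in secretory cells, markers of such cells were read beside the pumps. Of 8 immune markers, 7 were in the table and their summed level was 21.4 to 26.2 CPM in controls and 21.6 to 22.6 CPM after Folfiri, nearly all of it Cd68. The other 6 were all below 2 CPM, and both Lyz2 and Tyrobp had at most 2 counts in any sample. The 4 endothelial markers summed to 72.2 to 125 CPM in controls and 65.7 to 76.4 CPM after Folfiri, nearly all of it Cdh5, while Kdr was at 0 in every control and Pecam1 stayed below 1 CPM. Of the platelet markers Gp9 and Gp1bb had at most 4 counts in any sample, and the 4 of them summed to 1.12 to 1.36 CPM in controls and 1.94 to 2.70 CPM after Folfiri. Fibroblast and muscle markers summed to at most 2.41 and 0.805 CPM in any sample, with Col3a1 and Des at 0 in every control. Cdh5 stood at 124, 73.4 and 71.8 CPM in the controls and Cd68 at 20.7, 25.5 and 24.5 CPM, while Ptprc, Lyz2, Tyrobp, Kdr and Pecam1 were all below 1 CPM there. The part of such cells in the Atp2a3 level was not tested.
Of 7 goblet and secretory markers, 6 were in the table, 3 were lower and 1 higher, and their summed level was 90.9 to 95.0 CPM in controls and 24.3 to 26.7 CPM after Folfiri. Agr2 fell from 54.4 ± 1.72 to 6.79 ± 0.582 CPM and Fcgbp from 36.4 ± 3.74 to 7.97 ± 1.52 CPM. Clca1 rose from 2.04 ± 0.378 to 10.6 ± 0.134 CPM, and Tff3 and Spdef had at most 3 counts in any sample. Agr2 and Fcgbp were lower in the same samples as Atp2a3 and Atp2c2, and their part in the result was not tested. Markers of differentiated absorptive cells summed to 4.11 to 5.60 CPM in controls and 6.55 to 7.34 CPM after Folfiri, with Guca2a and Car4 at 0 in every control, and enteroendocrine and tuft markers to at most 1.10 CPM. The 7 epithelial markers summed to 5730 to 6637 CPM in controls and 4646 to 4816 CPM after Folfiri. Of these 7 genes, 4 were lower, 1 was higher and 2 did not pass the test. Epcam fell from 1252 ± 145 to 653 ± 14.4 CPM and the intestinal transcription factor gene Cdx2 from 157 ± 6.88 to 54.5 ± 0.753 CPM, Krt19 and Krt8 were also lower, and Krt18 and Vil1 did not pass the test (edgeR adjusted p of 0.125 and 0.183). The call for Krt8 was lost in 4 of 13 alternatives, those without control replicate 2, Folfiri replicate 1 and Folfiri replicate 2 and that with total counts only, where its log2 fold change turned from -0.27 to 0.0047, with adjusted p up to 0.95. Cdh1, which encodes E-cadherin, was the higher one, at 679 ± 25.8 and 786 ± 45.7 CPM (edgeR adjusted p = 0.035), a call that was lost in 6 of 13 alternatives, among them those without control replicates 2 and 3 and Folfiri replicates 1 and 2, with adjusted p up to 0.15.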

How the data were processed

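RNA of 3 control and 3 Folfiri-treated MTO54 samples was analysed. The deposited values are raw counts per gene: the authors aligned reads with STAR 2.5.2 to the mouse genome (mm10, GRCm38) with GENCODE vM25 annotation, sorted them with Sambamba and counted them with Rsubread, without normalization. Strand setting and handling of multi-mapping reads are not given in the sources used here. Totals per sample were 22103591 to 30098210, and this depth limits genes with few counts. Samples were grouped by their labels. Of 24190 genes, 24168 had a symbol in GENCODE vM21 (GRCm38), which also gave positions and exon lengths; promoter regions are from RefSeq.

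edgeR 4.0.16 in R 4.3.3 was run with filterByExpr at default settings, TMM and the quasi-likelihood test (group only, Benjamini-Hochberg, threshold 0.05). SE is the absolute log2 fold change over the square root of F. CPM used the TMM effective library sizes. No set test was run. The procedure was tested on simulated data. Chi-square statistics per degree of freedom between replicates were at least 3.75, so each sample was counted as its own replicate.

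Members, lists and tests were chosen with earlier results of these data known. Genes were named by a rule: the members and other calcium ATPases, up to 3 genes per direction and list (past the threshold, separate groups, mean of at least 5 CPM), a set of 17 fixed genes such as Stim1, and the 5 genes closest to Atp2a3 (prior count of 2). Of the fixed genes, Pln and S100g were not analysed here, nor was Strit1 of the lists, which matched no symbol. Some genes that the rule names are not reported here. Alternatives were 3 other scalings, 2 other filters, DESeq2 1.42.0 (Wald test), a replicate block, each replicate left out, and another gene length.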

Additional observations from a re-analysis of the deposited data

How the results depend on the processing

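Across the 7 other fits, the number of genes that differed stayed between 10630 and 12742 (main value 11623), that of the pump genes past the threshold between 4 and 5 (Atp2b4 was added with no filter), and that of the related lists between 82 and 90 (main value 86). Leaving out each replicate gave 11021 to 12312 genes, 4 pump genes and 81 to 91 list genes. With total counts only, the log2 fold changes were 0.27 for Atp2a2, -4.17 for Atp2a3, 0.71 for Atp2b1, -0.18 for Atp2c1 and -0.65 for Atp2c2. Atp2a2 then counted among the genes past the threshold and Atp2c1 did not, and the shift of the median of all genes by 0.28 accounts for these moves, since the values relative to that median were as before. With upper quartile scaling Atp2a3 was at -4.39. Without each replicate in turn, Atp2a3 stayed between -4.47 and -4.42 and Atp2a2 between -0.04 and 0.04. With the longest transcript as length, the Atp2a3 share of the SERCA level differed by -21.3 percentage points in place of -20.3, and 3 of the 6 genes took another rank after Folfiri.

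The replicate numbers did not pair the samples: correlations of same-numbered samples were between -0.117 and 0.0393, and 1 of 3 controls correlated best with its own number. The fit with the replicate number as a block gave 11499 genes, 4 pump genes and 84 list genes. The calls for Tmem64, Stim2 and the epithelial marker Cdh1 were lost with it. Depth limits what can be said of Atp2b4, Atp2a1, Atp2b2 and Atp2b3.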

Other observations

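Downstream of the calcium pumps, the calmodulin-dependent kinases, calcineurin and its NFAT targets were read as a further list. All 19 genes were tested, 7 were higher and 8 lower after Folfiri (edgeR), beside 40.3% and 38.8% of all tested genes, and the median log2 fold change was -0.12, against 0.02 for all tested genes. Camkk2 and Camkk1, the kinases that activate other calmodulin kinases, rose from 8.61 ± 2.54 to 28.4 ± 1.27 CPM and from 8.65 ± 0.281 to 15.5 ± 0.784 CPM (edgeR adjusted p of 3.67e-06 and 1.9e-05). Camk2d, a calmodulin kinase II gene, fell from 92.0 ± 4.08 to 31.5 ± 3.02 CPM, Camk1d fell by 1.06 and the calcineurin regulator gene Rcan2 by 0.89 on the log2 scale. Nfatc1 rose by 0.50. Rcan1, a calcineurin target gene named after its values were seen, was at 4.25 ± 0.654 CPM in controls and 4.33 ± 0.244 CPM after Folfiri (edgeR adjusted p = 0.904).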
